A study of Homo sapiens with 21 samples.

Results

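The regions occupied by Flag-tagged estrogen receptor beta (ER-beta) after LY500307, an ER-beta agonist, were set against those occupied after its ethanol vehicle. Chromatin immunoprecipitation with sequencing (ChIP-seq) had been done in MDA-MB-231 cells, a human triple-negative breast cancer line, carrying a doxycycline-inducible ER-beta. One list of enriched regions per treatment was compared. Of the 39808 regions in the 3 lists of the series on chromosomes 1 to 22 and X, 10045 belonged to the LY500307 list and 2902 to the ethanol list. A region was called shared when it overlapped a region of the other list by at least 1 bp. This gave 2298 shared LY500307 regions and 7747 found with LY500307 only, and, from the other side, 2317 shared ethanol regions and 585 found with ethanol only.

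Both groups carried the inducible receptor, were kept in medium with blasticidin S and zeocin, were at passages 20 to 25 and were moved to charcoal-stripped serum. Both had 24 h of doxycycline at 100 ng/ml and then 3 h of ethanol or LY500307. The titles state 1 nM LY500307 and the sample characteristics 10 nM, so its dose is uncertain. The labels name 4 ChIP libraries, made with an antibody to Flag, and 3 input libraries per treatment (14 of the 21 libraries of the series), whereas the protocol speaks of triplicates. The labels of the 4 ChIP libraries of a treatment point to 1 list, which was read as a pool. As a model, the system is 1 line with an added, induced and tagged receptor. The values therefore carry no error over cultures, and differences between LY500307 and ethanol could not be tested. The fold given for each region is the authors' ratio of ChIP signal over background at the summit, the base of highest signal. Because each pool had its own scaling, the folds of a site in the LY500307 and ethanol lists are set side by side without being read as a change, and ranks are read within a list. Read depth is unknown from the lists. Intervals in brackets are 95% Wilson intervals and cover counting error only.

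ER-beta is a ligand-activated transcription factor of the nuclear receptor family. As a dimer it binds the estrogen response element (ERE), a palindrome of a pair of arms around a spacer, and it can also be held on chromatin through other factors, such as the FOS and JUN proteins on AP-1 elements. Agonists turn the receptor's ligand-binding domain into a surface that recruits coactivators. Triple-negative cancers lack ER-alpha, the related receptor that drives many luminal breast cancers.

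Sequences under a few strong regions of each class with an ERE close to the summit are shown because this element set the classes apart in the counts that follow. The element searched was GGTCANNNTGACC on both strands within 100 bp of the summit, and at least 9 of the 10 fixed letters had to match. Each line gives the summit and 50 bp on either side on the plus strand of hg38, 5′ to 3′, with the ERE in capitals. Introns and distances to the nearest protein-coding transcription start site (TSS) are given with each.
shared, 40.1 kb from SMAD7, chr18:48990988-48991088: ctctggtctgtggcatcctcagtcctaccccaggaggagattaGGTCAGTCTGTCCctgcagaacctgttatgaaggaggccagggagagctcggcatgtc
shared, 2.46 kb from MFSD10, chr4:2937246-2937346: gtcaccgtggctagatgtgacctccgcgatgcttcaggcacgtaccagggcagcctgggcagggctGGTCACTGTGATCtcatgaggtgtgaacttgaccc
shared, 44.2 kb from AMOTL2, chr3:134327712-134327812: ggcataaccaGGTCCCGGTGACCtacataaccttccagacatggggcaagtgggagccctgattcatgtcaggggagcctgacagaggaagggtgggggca
shared, promoter of MANEAL, chr1:37793432-37793532: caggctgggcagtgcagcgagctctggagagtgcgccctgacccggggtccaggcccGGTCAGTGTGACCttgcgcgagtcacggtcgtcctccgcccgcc
LY500307 only, intron 8 of ADAMTSL2, chr9:133546397-133546497: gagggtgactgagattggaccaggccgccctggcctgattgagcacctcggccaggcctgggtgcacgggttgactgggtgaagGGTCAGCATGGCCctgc
LY500307 only, 69.8 kb from SLC16A1, chr1:112866109-112866209: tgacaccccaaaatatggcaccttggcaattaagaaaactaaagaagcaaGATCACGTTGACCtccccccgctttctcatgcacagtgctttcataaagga
LY500307 only, 263.2 kb from PLGLB1, chr2:87285034-87285134: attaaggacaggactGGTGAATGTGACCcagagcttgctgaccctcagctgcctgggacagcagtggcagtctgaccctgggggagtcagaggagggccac
ethanol only, 19.9 kb from NAIF1, chr9:128047390-128047490: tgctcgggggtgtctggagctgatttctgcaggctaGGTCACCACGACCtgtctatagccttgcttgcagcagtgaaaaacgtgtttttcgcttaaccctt
ethanol only, 120.8 kb from SEPTIN14, chr7:55741939-55742039: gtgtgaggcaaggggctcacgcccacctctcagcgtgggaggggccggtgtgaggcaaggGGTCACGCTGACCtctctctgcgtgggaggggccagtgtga
The shared and LY500307-only sequences carried their ERE under regions of high fold, 124.5 at MFSD10, 121.8 at AMOTL2 and 126.8 at SMAD7 with LY500307, 44.3 at MANEAL with ethanol, and 51.1 at ADAMTSL2, 46.5 at SLC16A1 and 39.8 at PLGLB1 with LY500307. The MANEAL and SEPTIN14 copies matched all 10 fixed positions, and the other 7 printed had 1 mismatch. The ethanol-only sequences lay under weak regions, with folds of 6.87 at NAIF1 and 5.57 at SEPTIN14, and these were 2 of the 6 ethanol-only regions with an ERE.

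Nearly every strong ethanol site was also a site with LY500307, and the LY500307 list added a long tail of weaker ones. Of the ethanol regions 79.8% (78.3 to 81.3) were shared, and of the LY500307 regions 22.9% (22.1 to 23.7). In the highest decile of fold, 289 of 290 ethanol regions and 836 of 1004 LY500307 regions (83.3%) were shared. The share in the LY500307 list fell to 38.7% in decile 2 and 18.9% in decile 3 and lay between 11.8% and 13.7% in the 7 deciles below. In the ethanol list it was still 89.0% in decile 5 and between 51.03% and 63.8% in the lowest 4.

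**Figure D1:**
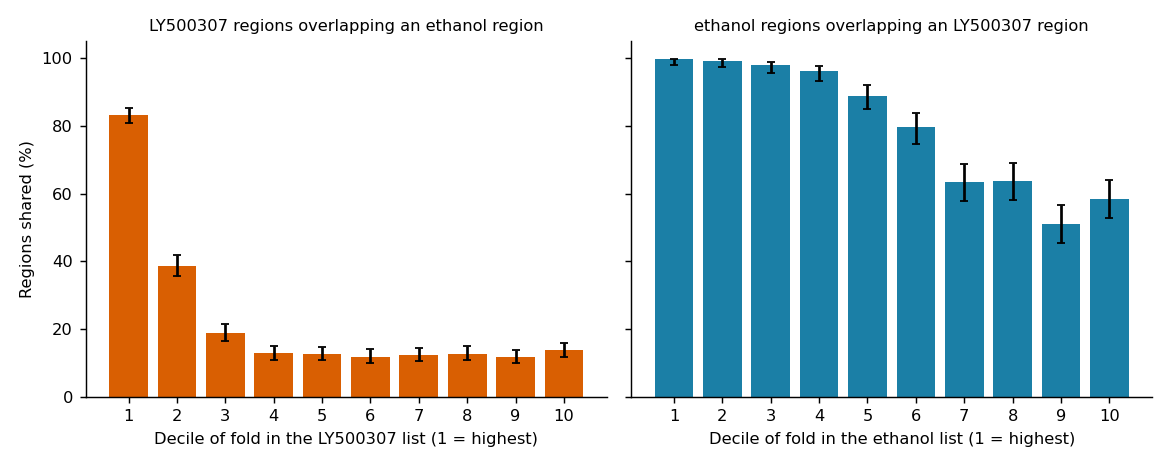
Share of regions (%, bars) that overlapped a region of the other list, by decile of fold within the LY500307 list (left) and within the ethanol list (right), decile 1 being the highest. Lines are 95% Wilson intervals over regions. The LY500307 bars drop from 83.3% to 18.9% over the highest 3 deciles and then stay level, while the ethanol bars stay above 96% over the highest 4.

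The median fold with LY500307 was 20.4 for shared regions and 7.82 for LY500307-only regions, so that the shared ones held a median percentile rank of 17.2 (1 being near the top) and the others 55.7. With ethanol, shared regions had a median fold of 7.85 and a median percentile of 40.3, and ethanol-only regions 5.54 and 76.8. All of the 100 highest LY500307 regions were shared, and the first that was not ranked 237. Only 16 of the highest 500 were LY500307-only. In the ethanol list the first unshared region ranked 23, on the ESR2 gene itself, and it was the 1 unshared region among the highest 100.

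The regions closest to the 1 bp cutoff of overlap were weak, although LY500307-only regions (1598) outnumbered shared ones (1415) even in the highest 3 deciles of LY500307 fold. The shared pair with the smallest overlap, 2 bp, lay nearest to ZNF276 with folds of 4.94 (LY500307) and 6.18 (ethanol). The unshared LY500307 region closest to an ethanol region lay 1 bp from it, nearest to TICRR, where the LY500307 region had a fold of 5.86 and the ethanol region 4.81. Of the LY500307-only regions, 297 (3.83%) lay within 1 kb of an ethanol region, and of the ethanol-only regions 87 (14.9%) lay within 1 kb of an LY500307 region. Among shared regions, 32 LY500307 and 14 ethanol regions overlapped more than 1 partner. As a side note, the estradiol list of the same study held 93.7% of the shared LY500307 regions, 91.3% of the LY500307-only and 60.9% of the ethanol-only regions.

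The highest shared sites lay both at the start of genes and far from any. The intergenic region nearest to NTNG2 ranked 1 with LY500307 and 3 with ethanol. The region ranked 4 with LY500307 lay in a coding exon of LAMC1, the laminin gamma-1 chain, 601 bp downstream of the TSS, with folds of 125.1 with LY500307 and 40.4 with ethanol. Intron 7 of SYNJ2, a phosphoinositide phosphatase, had 124.9 and 69.0, and its summit window held an AP-1 element and no ERE with at most 1 mismatch. The promoter of PTMA, which encodes the chromatin-associated protein prothymosin alpha, had 123.5 with LY500307 and 31.3 with ethanol. Sites nearest to KRT80, a keratin gene (121.4 and 27.6), and LSM3, an RNA-processing subunit gene (121.2 and 50.7), completed the 10 highest with those of ADAMTSL5, SMAD7, MFSD10 and AMOTL2. Their LY500307 folds ran from 121.2 to 142.6, 4 of the 10 held an ERE, and their ethanol ranks ran from 3 to 98 of 2902.

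Ranked by ethanol fold instead, the leading shared sites were in introns and intergenic DNA. An intergenic region 66.1 kb from GPC1, a heparan sulfate proteoglycan gene, ranked 2 with ethanol (fold 73.6) and 22 with LY500307 (106.2). One 28.0 kb from FOXK2, a forkhead factor gene, ranked 6 and 36 (63.9 and 96.1). One 120.0 kb from SLC45A1, a sugar transporter gene, ranked 5 and 18 (65.6 and 109.0). The region 10.6 kb from LAPTM4B was out of step, ranking 1 with ethanol and 276 with LY500307, with a fold of 75.9 in the ethanol list and 58.8 in the LY500307 list. A further 5 of the 10, at NTNG2, SYNJ2, MYO18A, AMOTL2 and ABHD5, ranked between 1 and 21 with LY500307, and none of the 10 lay in a promoter.

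Of the 2331 overlapping pairs, 2240 paired 1 region with 1. Their median fold was 20.9 in the LY500307 list and 7.86 in the ethanol list, and 1917 pairs had the higher number in the LY500307 list, each pool being on its own scale. Summits lay a median of 18 bp apart, and 79.7% within 50 bp. Folds in the lists rose together (Spearman's rho 0.69 over 2240 pairs on 1 genome, given as a description).

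**Figure D2:**
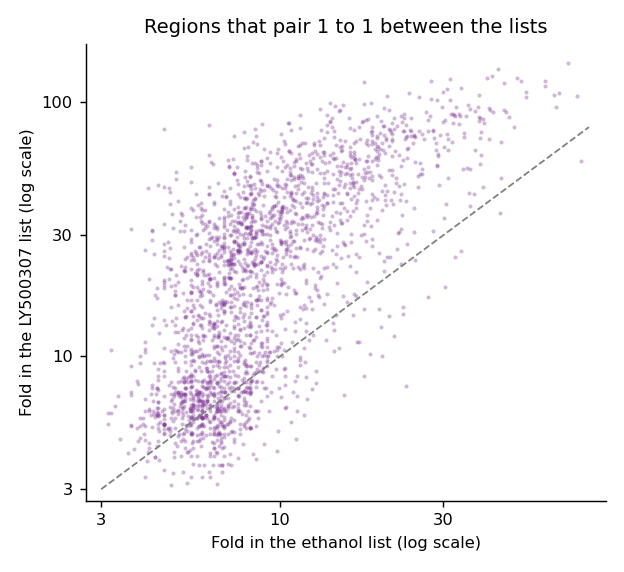
Fold in the LY500307 list (y, log scale) against fold in the ethanol list (x, log scale) for the 2240 regions that paired 1 to 1; each point is a pair and the dashed line marks equal numbers. Most points (1917) lie above the line, and a dense group of pairs with ethanol folds near 7 spreads from LY500307 folds under 10 to above 50.

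Some shared pairs stood low in the ethanol list and high in the LY500307 list. The lists differ in length, so the ranks are given side by side and not as a change, and the 5 pairs here were chosen for the widest gap in percentile rank. The promoter of SERPINB9, the granzyme B inhibitor gene, ranked 2828 of 2902 with ethanol (fold 4.12) and 469 of 10045 with LY500307 (45.9). Intron 1 of HOMER2, a scaffold gene of glutamate receptor signalling, 389 bp from the TSS, ranked 2723 and 111 (4.58 and 78.3). Intron 1 of ARRB1, the beta-arrestin 1 gene, 344 bp from the TSS, ranked 2879 and 887 (3.66 and 31.9). The promoter of CD34, a cell-surface sialomucin gene, ranked 2714 and 451 (4.58 and 46.6), and intron 2 of SH3BP5L ranked 2747 and 438 (4.396 and 47.2). None of these 5 held an ERE with at most 1 mismatch, and 4 of them lay within 400 bp of a TSS. They did not stand for a larger group. The 747 pairs standing relatively highest in the LY500307 list had an ERE at 19.9%. Their median TSS distance was 11.4 kb, and promoters held 15.8%.

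The 5 pairs chosen for the widest gap in the other direction stood higher in the ethanol list. Intron 4 of MAPKAP1, an mTORC2 subunit gene, ranked 610 with ethanol and 9466 with LY500307 (11.1 and 4.74). The 5′ untranslated region (UTR) of FLAD1, the FAD synthase gene, ranked 760 and 9807 (9.80 and 4.24). Intron 1 of LIPC, the hepatic lipase gene, ranked 872 and 9688 (8.97 and 4.52), and intron 4 of TMEM182 ranked 965 and 9936 (8.50 and 3.93). A region 73.0 kb from PGR, the progesterone receptor gene, ranked 752 and 9084 (9.88 and 5.08) and was the 1 of these 5 with an AP-1 element. None held an ERE. Among the 746 pairs standing relatively highest in the ethanol list, an ERE was at 14.9% and AP-1 at 8.18%.

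The strongest LY500307-only sites stood within the highest decile of the LY500307 list, below all of its 100 highest regions. The 10 leaders ranked from 237 to 433 of 10045, with folds of 47.5 to 62.3, and lay 2.41 to 360.3 kb from the closest ethanol region. After intron 1 of MITF they were in intron 12 of ASPSCR1, a tether gene of glucose transporter trafficking (57.1), the common promoter of DHX32 and FANK1 (52.3), intron 8 of ADAMTSL2, a secreted ADAMTS-like protein gene (51.1), and the promoter of BRWD1, a bromodomain gene (51.1). Then came the region 28.0 kb from SERPINB9 (50.4), intron 2 of COL18A1, the collagen from which endostatin is cut (49.7), the promoter of AKAP1, a mitochondrial anchor of protein kinase A (49.0), the promoter of FST, encoding the activin trap follistatin (47.8), and the 3′ UTR of ARMC6 (47.5). Of the 10, 2 held an ERE, and all 10 were in the estradiol list.

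Some genes gathered many LY500307-only summits within 20 kb of a TSS. Every TSS of a gene counted, so genes with TSSs far apart drew on a wider stretch. The TNS3 regions, for example, lay between 47379987 and 47601151 on chromosome 7. BCL9L, a coactivator gene of beta-catenin, had 9, with folds of 4.22 to 13.2 and no ERE, against 2 ethanol regions. VAC14, a scaffold of endosomal phosphoinositide synthesis, had 8, with folds of 6.93 to 32.2. A further 6 genes had 7 each: ACTG1, a cytoplasmic actin, NHERF1, a PDZ scaffold, PFKFB3, a regulator of glycolysis, SMAD3, TNS3, a tensin of focal adhesions, and TRMT61A, a tRNA methyltransferase subunit. ACTG1, PFKFB3, TNS3 and TRMT61A had no ethanol region within 20 kb of a TSS. The highest fold among these LY500307-only summits was 42.5, at NHERF1.

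The ethanol-only regions, most of them weak, differed in position from the other classes taken whole. Their median distance to the nearest TSS was 361 bp, against 10.8 kb for shared and 14.8 kb for LY500307-only summits. They did not centre on the TSS but just inside the gene: 38.1% (34.3 to 42.1) lay 100 to 500 bp downstream of it, against 11.97% (10.7 to 13.4) of shared and 9.41% (8.78 to 10.1) of LY500307-only summits. Promoters, from 1000 bp before to 100 bp after a TSS, held 32.6% (29.0 to 36.6) of ethanol-only summits, 15.2% (13.8 to 16.8) of shared and 13.7% (12.9 to 14.5) of LY500307-only summits. Such windows cover 1.48% of the assembled bases of these chromosomes, so every class exceeded its share of the genome. Intergenic DNA held 17.3% of ethanol-only, 36.6% of shared and 38.4% of LY500307-only summits, and introns 35.7%, 41.9% and 41.8%. Against shared regions of like strength the contrast was smaller. In the lowest 3 deciles of ethanol fold, the median TSS distance was 0.84 kb for 503 shared and 0.337 kb for 368 ethanol-only regions. Promoters held 25.0% and 36.1% of these, and 25.8% and 41.3% lay 100 to 500 bp downstream of a TSS.

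**Figure D3:**
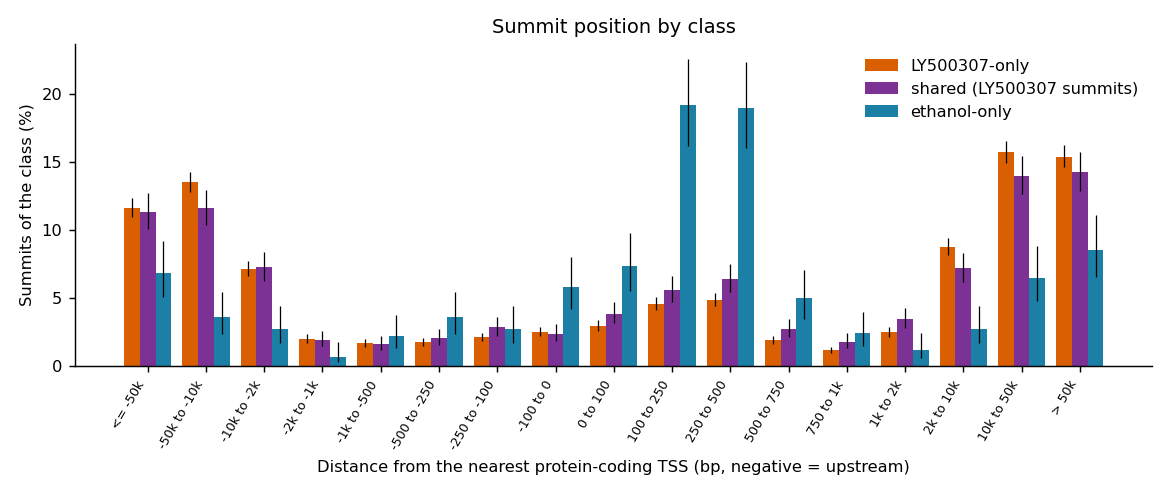
Share of summits (%, bars, with 95% Wilson intervals as lines) by distance from the nearest protein-coding TSS in bp, negative being upstream, for LY500307-only, shared and ethanol-only regions. Ethanol-only summits peak in the bins from 100 to 250 bp (19.1%) and from 250 to 500 bp (19.0%) downstream, where the other classes have 4.56% to 6.40%.

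Base composition moved with this class. Median GC content within 100 bp of the summit was 66.7% for ethanol-only regions, 56.2% for shared and 53.7% for LY500307-only regions, and 43.3% to 46.8% in windows 2000 bp downstream of each. In the lowest 3 deciles of ethanol fold, median GC content was 61.7% for shared and 69.2% for ethanol-only regions. Its part in the motif and position differences was not tested.

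An ERE with at most 1 mismatch was at 18.5% (17.0 to 20.2) of shared summits, 14.9% (14.1 to 15.7) of LY500307-only summits and 1.03% (0.471 to 2.22) of ethanol-only summits. The windows 2000 bp downstream held it in 0.783%, 0.658% and 0.513%, and 0.403% of 19624 windows of the same length centred on protein-coding TSSs did. With 1 mismatch allowed, ethanol-only summits therefore stood near the level of sequence outside the sites, while both other classes lay far above it. Where an ERE was found, it lay a median of 12 bp from the summit in shared, 17 bp in LY500307-only and 12 bp in ethanol-only regions. Copies without a mismatch were at 2.79% of shared, 1.56% of LY500307-only and 0.513% of ethanol-only summits.

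The single arm GGTCA, contained in every such ERE, was at 72.7% of LY500307-only, 67.9% of shared and 25.5% of ethanol-only summits, against 29.4% to 33.2% downstream and 24.3% of TSS windows. The AP-1 element TGACTCA was at 13.9%, 12.9% and 1.197% in the same order, against 3.42% to 3.49% downstream and 2.12% of TSS windows. It can overlap an ERE arm only where that arm has a mismatch. Regions with neither the arm nor AP-1 made up 24.6% of LY500307-only, 30.2% of shared and 73.5% of ethanol-only regions. Both an ERE and AP-1 were at 3.05% of shared and 1.86% of LY500307-only summits.

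Elements of other factors were sought on both strands without a mismatch. The element GGAATG of TEAD factors, the DNA-binding partners of YAP, was at 17.3% of LY500307-only, 16.3% of shared and 10.3% of ethanol-only summits, against 8.89% to 11.3% downstream. The GC-rich SP1 element GGGGCGGGG went the other way, at 3.07%, 3.61% and 7.52%, against 0.8% to 1.197% downstream and 18.2% of TSS windows. The ETS family element CCGGAAG, frequent in housekeeping promoters, was at 2.35%, 3.31% and 3.25%, against 0.342% to 1.09% downstream and 11.2% of TSS windows. In all 3 classes the SP1 and ETS elements were thus more frequent than downstream and less frequent than in TSS windows. Luminal breast cells rely on GATA3 and FOXA1, whose elements were no more frequent than in the downstream windows, which had lower GC content. The GATA3 element AGATAA was at 5.47% to 9.28% of summits in the 3 classes, against 10.4% to 11.5% downstream. In TSS windows it was rarer than in any class, at 3.41%. The FOXA1 element TGTTTAC was at 0.855% to 1.67%, against 2.62% to 3.08% downstream and 1.22% of TSS windows. The element TGTGGTT of RUNX factors was at 5.29% of LY500307-only, 4.70% of shared and 1.37% of ethanol-only summits, against 3.31% to 3.59% downstream.

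**Figure D4:**
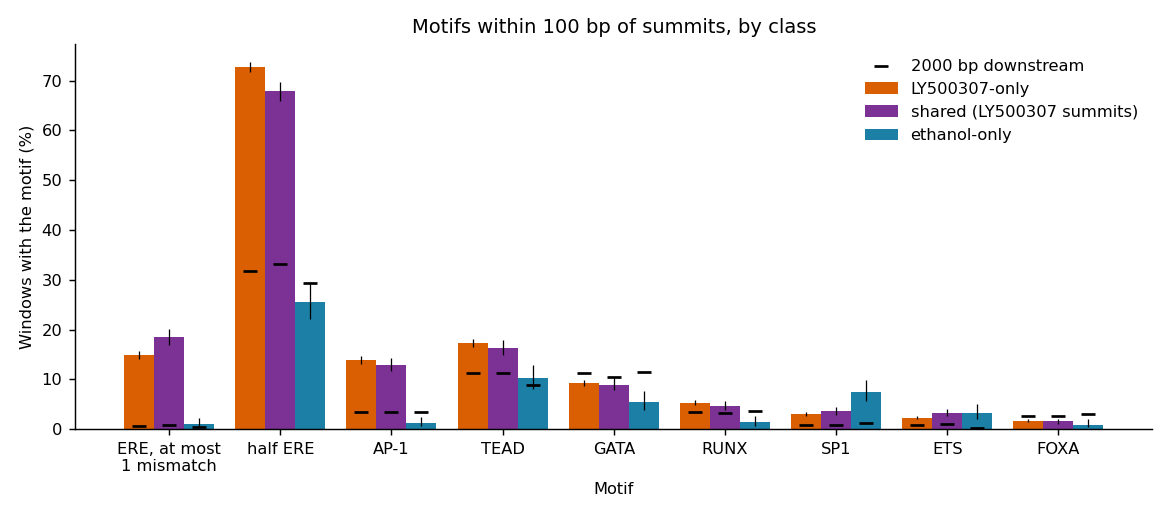
Share of windows (%) reaching 100 bp to either side of summits that held each motif, for LY500307-only, shared and ethanol-only regions (bars, with 95% Wilson intervals as lines); black dashes mark the windows 2000 bp downstream. The ERE, its single arm and AP-1 stand above the dashes in LY500307-only and shared regions and at or below them, or within the interval, in ethanol-only regions.

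Sharing with ethanol went with different sequence at different strengths. Among the highest 3 deciles of LY500307 fold, an ERE was at 23.1% (21.0 to 25.4) of 1415 shared and 16.6% (14.9 to 18.6) of 1598 LY500307-only summits, and AP-1 at 17.8% and 18.5%. Among the middle 4 deciles both classes had an ERE at 18.4%, but AP-1 was at 7.21% (5.26 to 9.83) of 499 shared and 15.9% (14.7 to 17.2) of 3519 LY500307-only summits. Among the lowest 3 deciles the order was turned, with an ERE at 1.82% (0.886 to 3.71) of 384 shared and 9.09% (8.05 to 10.2) of 2630 LY500307-only summits. Those weak shared regions had a median GC content of 62.4%, a median TSS distance of 0.51 kb, and 32.3% of them lay 100 to 500 bp downstream of a TSS. In these measures they stood closer to the ethanol-only regions than to the strong shared ones.

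Inside the ethanol list the shared regions had the larger ERE share in the middle and the lowest deciles. Shared ethanol regions had an ERE at 22.5% in the highest 3 deciles of ethanol fold, 20.3% in the middle 4 and 8.35% in the lowest 3, whereas ethanol-only regions had 0 of 9, 2 of 208 (0.962%) and 4 of 368 (1.09%). With 9 regions, a count of 0 allows a share of up to 29.9% by the Wilson interval.

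**Figure D5:**
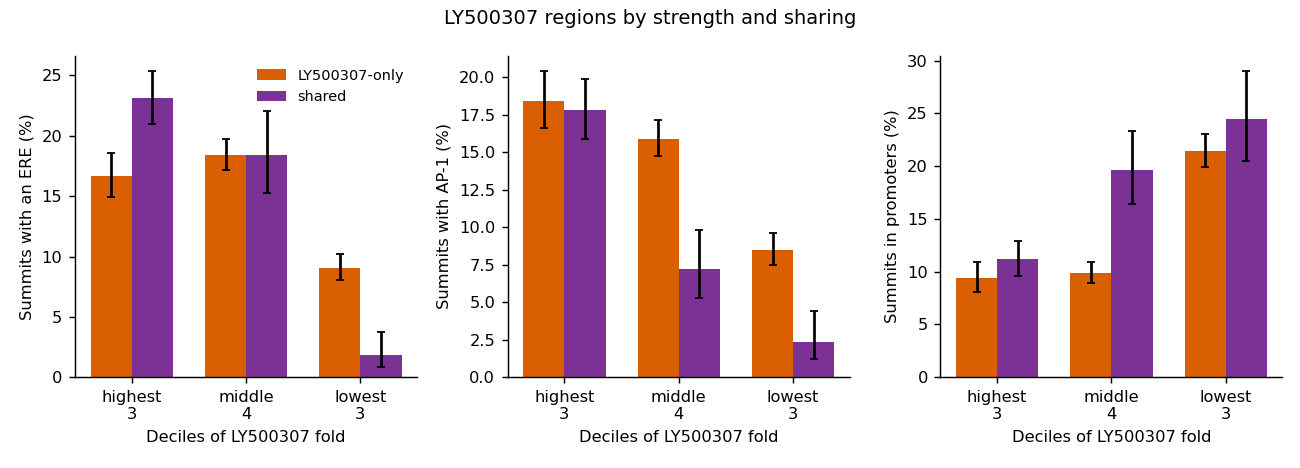
Share (%, bars, with 95% Wilson intervals as lines) of LY500307 summits with an ERE (left), with AP-1 (middle) and in promoters (right), by deciles of LY500307 fold, for LY500307-only and shared regions. ERE bars are 16.6% and 23.1% in the highest 3 deciles and 9.09% and 1.82% in the lowest 3, while promoter bars are 9.39% and 11.2% at the top and 21.4% and 24.5% at the bottom.

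The strongest ethanol-only regions lay on the coding exons of 2 genes, ESR2 and HDAC7. ESR2 encodes ER-beta, and HDAC7 encodes a class IIa histone deacetylase. The ethanol list had 7 regions on ESR2 (chromosome 14, 64228317 to 64294371, minus strand), and all 7 sat on coding exons and covered 7 of its 8 coding exons whole. In the order of the transcript the folds were 42.5 on coding exon 1, 10.5 on exon 2, 23.3 on exon 4, 6.58 on exon 5, 7.20 on exon 6, 14.4 on exon 7 and 15.0 on exon 8, while coding bases make up 2.41% of the gene. The LY500307 list had regions on exon 4 (7.64) and exon 7 (12.8), and no others on the gene. The cells carry an added ER-beta gene, and in these lists reads from the added copy and from the chromosomal gene cannot be told apart.

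HDAC7 (chromosome 12, 47782722 to 47819903, minus strand) had 13 ethanol regions, all on coding exons and together touching 21 of 26, with folds of 6.86 to 30.4. The strongest was on exon 13 (30.4), followed by exons 10 to 12 (27.1). The LY500307 list had 9 regions there, over 15 coding exons, with folds of 8.35 to 18.8, and all 9 were shared. The labels name no added HDAC7, and the source of this exon pattern was not tested. These were the only 2 genes with 2 or more ethanol summits placed in coding exons, among 111 genes with any. Of the 10 highest ethanol-only regions, 7 lay in coding exons, 3 each on ESR2 and HDAC7 and 1 on ZNF721, a zinc finger gene.

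Leaving out all regions on both genes moved no share of overlap, promoters or EREs beyond its interval. For the ethanol-only class the promoter share became 33.2% and the ERE share 1.04%. The other 3 of its 10 leaders were in intron 1 of SCAF4, an RNA-processing gene (9.15), the promoter of SLC25A46, a mitochondrial carrier gene that TMEM232 shares (9.15), and intron 1 of SBDS, a ribosome maturation gene (8.76). Without the ESR2 and HDAC7 regions the highest fold of the class was 9.15.

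By genes, 5526 of 19618 protein-coding genes (28.2%) had an LY500307 summit within 20 kb of a TSS. Shared LY500307 summits were near 1704 (8.69%) and LY500307-only summits near 4603 (23.5%). Ethanol summits were near 2305 (11.7%), and ethanol-only summits near 708 (3.61%). In all, 3636 genes had an LY500307 summit and no ethanol summit, and 415 the reverse. The lists of genes below were read against these shares and not tested. Where a gene had several summits, its best LY500307 fold had a median of 8.79 over all genes with one.

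Estrogen target genes were near LY500307 summits in 15 of 26 cases (57.7%) and near ethanol summits in 6 (23.1%), with a median best LY500307 fold of 23.9. GREB1, a cofactor of estrogen receptors, had LY500307 regions of both classes. Its intron 1 held a shared region 16.4 kb downstream of a GREB1 TSS (93.4 with LY500307, 41.1 with ethanol, ERE GGGCACACTGACC). Also in intron 1, but upstream of another GREB1 TSS, were a shared region at 1.499 kb (26.0 and 12.5, an ERE without mismatch) and an LY500307-only region at 2.92 kb (33.0). PDZK1, a scaffold gene, had a shared promoter region with 40.5 and 14.3, and CCND1, the cyclin D1 gene, had shared regions in intron 1 with 26.1 and 10.5 and with 12.7 and 6.86. Entirely LY500307-only were NRIP1, the receptor-interacting corepressor gene, with 26.8 and 19.4 in intron 3, both with an ERE, MYB, a proto-oncogene (23.9 in intron 1), TPBG (17.4 in the 5′ UTR) and ABCA3, a lipid transporter gene (17.3 in the promoter). The promoter of TFF1 had an LY500307-only region with an ERE and a fold of 8.35. Of the 38 LY500307 regions near estrogen targets, 11 held an ERE, beside 15.7% of all LY500307 regions.

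Nuclear receptor coregulator genes had LY500307 summits in 12 of 23 cases (52.2%) and ethanol summits in 6. Shared sites were in intron 5 of PELP1, a coactivator gene (76.5 and 7.83), at the promoter of NCOA1, the first steroid receptor coactivator (53.2 and 8.54), and 8.03 kb from CARM1, an arginine methyltransferase gene (48.4 and 11.7). NCOR1 was the 1 gene of the list near an ethanol region alone (4.34).

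TGF-beta and activin genes had LY500307 summits in 15 of 34 cases (44.1%) and ethanol summits in 6 (17.6%), with a median best fold of 8.35. SMAD3, a signal transducer, had a shared site in intron 1 with 73.7 and 8.48, and SKIL, a SMAD repressor gene, one at its promoter with 16.0 and 6.50. FST had a shared region at 3.33 kb (61.9 with LY500307, 6.22 with ethanol) beside its LY500307-only promoter region. BAMBI, a decoy receptor gene, had LY500307-only regions alone, the highest of 34.6 at 17.1 kb. TGFBR3, a co-receptor gene, had one of 12.6 with the ERE GGTCAGAAGGACC in intron 1.

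Cystatin genes, secreted or cytosolic inhibitors of cysteine proteases, had LY500307 summits in 7 of 12 cases and ethanol summits in 4, with a median best fold of 30.8. They lie in part side by side on chromosome 20, but no region lay within 20 kb of more than 1 member. CST5 had a shared promoter region with 68.8 and 18.6, CST3 a shared region 7.64 kb from its TSS with 55.8 and 15.5, and CST4 a shared promoter region with 32.4 and 6.86. The promoter of CST1 had an LY500307-only region of 30.8 and intron 1 a shared one with 21.8 and 7.92. CST6 and CSTB had LY500307-only regions of 16.2 and 7.09. Of the 16 LY500307 regions near cystatins, 1 held an ERE, beside 15.7% of all LY500307 regions.

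Adhesion and shape genes were mixed. Laminin chains had LY500307 summits in 6 of 12 cases and ethanol summits in 2, the latter LAMC1 and LAMA5, whose intron 2 had 88.7 and 19.2 and whose promoter had 62.5 and 28.9. Integrin chains had them in 6 of 25 cases and 2, among them ITGB5 with a shared site in intron 5 (31.4 and 8.24, ERE GGGCATCCTGACC) and ITGB2 with an LY500307-only site in intron 4 (29.7). Transcription factors of epithelial-mesenchymal transition and cadherins had them in 8 of 22 cases and 6. SNAI1 and SNAI2, repressors of E-cadherin, had shared promoter regions with 31.8 and 6.53 and with 30.4 and 8.85, and CDH3, P-cadherin, one in intron 1 with 45.5 and 17.3. CDH1, E-cadherin, had LY500307-only regions of 10.4 and 6.45. None of the 10 LY500307 regions near laminins or the 11 near the transition genes held an ERE. With 15.7% of all LY500307 regions holding one, such small counts set neither list apart.

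Among regulators of growth, cell cycle genes had LY500307 summits in 17 of 36 cases (47.2%) and ethanol summits in 10 (27.8%). CDKN1B, the p27 inhibitor, had a shared site at 5.91 kb (20.3 and 6.22), and CDKN1A, the p21 inhibitor, one in intron 1 (10.9 and 5.22). An LY500307-only region of 39.1 lay 15.5 kb from CDK4 in the promoter of the neighbouring EEF1AKMT3. WEE1 and E2F6 had ethanol-only regions alone, of 5.66 and 5.24. AP-1 subunit genes had LY500307 summits in 10 of 19 cases and ethanol summits in 6. JUND had 65.7 and 18.9 in the promoter, MAFK 27.3 and 6.24, and FOSL1 14.3 and 5.27. The FOSL1 regions overlapped, but their summits lay 1.02 kb (LY500307) and 0.34 kb (ethanol) downstream of the TSS. An LY500307-only region of 30.6 lay 7.32 kb from JUNB but nearest to HOOK2. Another, of 12.9, lay 2.56 kb from JUNB. NF-kB and inflammatory genes had LY500307 summits in 11 of 28 cases and ethanol summits in 4. NFKBIA, the inhibitor of NF-kB, had 50.3 and 13.4 in the promoter, LIF 37.3 and 15.7, and TNIP1 37.2 and 14.6 (ERE GGTCGGCCTGACC).

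Genes that feed back on MAP kinase signalling had LY500307 summits in 13 of 20 cases (65.0%) and ethanol summits in 4, but mostly weak ones, with a median best fold of 6.70. SPRY4 and SPRY1, sprouty inhibitors, had LY500307-only regions of 38.5 and 24.6, DUSP4, a phosphatase gene, one of 15.1, and ETV4 one of 13.2. DUSP7 had a shared region with 62.2 and 13.4, and ERRFI1, an EGF receptor inhibitor gene, one with 22.6 and 13.7. None of the 17 LY500307 regions near these genes held an ERE, beside 15.7% of all LY500307 regions. Receptor tyrosine kinases had LY500307 summits in 9 of 29 cases (31.0%) and ethanol summits in 6 (20.7%), beside 28.2% and 11.7% of all genes. AXL had a shared site in intron 4 (42.4 and 12.8) beside 4 LY500307-only ones, EPHA2 one in intron 3 (32.0 and 4.88), and RET 4 LY500307-only regions of 16.3 to 29.3 and none with ethanol. MERTK, TYRO3 and EPHB4 had ethanol-only regions alone, of 4.85 to 5.85.

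Hippo pathway genes had LY500307 summits in 12 of 23 cases and ethanol summits in 4, with a median best fold of 7.74. CCN1, a YAP target gene, had a shared region at 18.5 kb with 85.2 and 30.4, TEAD3 one in intron 2 with 52.2 and 16.2, and WWC1 LY500307-only regions of 12.2 to 22.02. Retinoid genes had LY500307 summits in 4 of 20 cases (20.0%) and ethanol summits in 2 (10.0%). With 28.2% and 11.7% of all genes, such small counts do not set the list apart. RARA had a shared site with 102.1 and 28.8 in intron 1, and DHRS3, a retinal reductase gene, one with 49.4 and 7.50. Luminal breast markers had them in 7 of 20 cases and 2. KRT19, a simple keratin, had a shared site in intron 5 (42.1 and 11.9) and an LY500307-only promoter site of 26.96 with an ERE, and ELF3, an epithelial ETS factor gene, LY500307-only sites of 5.62 to 30.8.

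The 3 lists chosen for contrast bear on how such counts read. Cytosolic ribosomal protein genes had LY500307 summits in 26 of 44 cases (59.1%), as often as estrogen targets, but with a median best fold of 6.77 and 8 genes with an ethanol summit. The highest of them, 52.2 at RPL10A, was the TEAD3 site, since these genes are neighbours. Hepatocyte genes had LY500307 summits in 4 of 24 cases (16.7%) and neuronal synapse genes in 6 of 24 (25.0%). Both lists, like integrin chains and retinoid genes, were under the 28.2% of all genes, but such small counts set none of these lists apart. The order also changed with the window. Within 100 kb of a TSS, integrin chains had LY500307 summits in 16 of 25 cases and hepatocyte genes in 14 of 24, beside 58.8% of all genes. Synapse genes had them in 13 of 24 cases and retinoid genes in 7 of 20. STX1A, a syntaxin gene in the synapse list, still had a shared site of 89.0 and 13.7. Estrogen targets and ribosomal genes thus had like shares of genes with an LY500307 summit, and median best folds of 23.9 and 6.77.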

How the data were processed

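The deposited narrowPeak lists hold 1 pooled set of regions for each treatment, and those of LY500307 and ethanol were compared, with the estradiol list for side notes. Tools named in the submitters' processing notes are MACS2 2.1.1.20160309, Bowtie2 2.2.6 and DiffBind, with build hg38, and the step each served is not given in the sources used here. The deposited fold (the authors' ratio of ChIP signal to background at the summit) and the deposited -log10 q are the authors' values for each region. The deposited display score was not used. On chromosomes 1 to 22 and X, 10045 of 10059 LY500307 and 2902 of 2911 ethanol records were kept, and 3 of the ethanol records left out lay on Y. No records of a list touched.

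Positions were converted to 1-based coordinates. Sharing needed 1 bp of overlap. Ranks were by fold within a list. Places of summits came from GENCODE 44 protein-coding transcripts, a promoter taking precedence over exons (first 5′ UTR, then coding, then 3′ UTR) and exons over introns. Motifs were sought within 100 bp of summits, and in windows 2000 bp downstream and centred on TSSs for comparison. Named regions were the 10 highest by fold of each class (shared by either list, LY500307-only, ethanol-only), the 5 one-to-one pairs with the largest rise and the 5 with the largest fall in percentile rank among pairs in the upper part of a list, the 5 genes with most LY500307-only summits (8 with ties), and the strongest regions near members of 18 gene lists. The members and lists were chosen with earlier results of these data known. With 1 pooled list per treatment no test was possible and no p-value was computed. Scripts ran in Python 3.11.15 (pandas 2.3.3, numpy 2.4.6, pysam 0.24.0, matplotlib 3.10.9). Overlap, motif and placement code was tested on simulated data. Alternatives changed the overlap, the q minimum, list length, promoter, motif mismatches and window. A few regions and a sequence that these rules select are not reported here.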

Additional observations from a re-analysis of the deposited data

How the results depend on the processing

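Of 46 alternative values for the 8 shares of overlap, promoters and EREs, 21 stayed within the main 95% interval and 25 moved. With at least 50% of each region overlapping, 19.4% of LY500307 and 67.1% of ethanol regions were shared, and with summits within 200 bp 22% and 76.2%. At -log10 q of 5 or more, 82.2% of ethanol regions were shared, and promoters held 13.6% of shared, 12.7% of LY500307-only and 28.3% of ethanol-only summits. With the highest LY500307 regions, as many as ethanol regions, 48.1% and 48.8% were shared. Promoters then held 10.9%, 9.56% and 26.9% of shared, LY500307-only and ethanol-only summits and EREs were at 22.9%, 16.9% and 7.47%: ethanol-only then takes in sites found lower in the LY500307 list. Promoters of 2500 bp on both sides held 36.2%, 29.3% and 69.6% in that order. Without a mismatch EREs were at 2.79% of shared and 1.56% of LY500307-only summits, with at most 2 mismatches at 48.2%, 46.5% and 8.03% of the classes, and within 50 bp of the summit at 12.7% of LY500307-only summits. In each of these settings for which promoters or EREs were counted (all but the 50% overlap), the ethanol-only class had the highest promoter share and the lowest ERE share. Leaving out regions on ESR2 and HDAC7, an alternative chosen after seeing the data, moved no share beyond its interval. Within 5 kb of a TSS 17.4% of genes had an LY500307 summit and 7.36% an ethanol summit, and within 100 kb 58.8% and 29.95%. No paired analysis was possible because each treatment has 1 pooled list. The dose of LY500307, the number of libraries pooled and the depth are uncertain, and a region missing from a list may lie under its threshold.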
